A study of Mus musculus with 10 samples.

Results

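The genes described here encode the enzymes that carry electrons from fatty acid oxidation to the respiratory chain and those that prepare unsaturated fatty acids for oxidation. They comprised Etfa, Etfb and Etfdh, the isomerases Eci1, Eci2 and Ech1, and the acyl-CoA dehydrogenase family members Acad9, Acad10, Acad11 and Acadsb. They were taken by gene symbol, giving 10 of the 55401 gene identifiers in the expression table. Messenger RNA was measured by RNA-seq in limb muscle of wild-type ICR foetuses at ED18.5, with 5 libraries in the GDM group and 5 in the CTR group. GDM dams had received streptozotocin, which destroys pancreatic beta cells, at GD 6.5 and GD 12.5, while CTR dams had received buffer. The comparison addressed how intrauterine hyperglycaemia relates to gene expression in foetal muscle. The hyperglycaemia in this model came from loss of maternal beta cells, and any direct effect of the drug on the foetus cannot be told apart from it. The study describes the foetal muscle as male. The labels gave neither sex nor litter, so that p-values reflect the spread among samples, and the spread among litters is unknown.

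In mitochondria, acyl-CoA dehydrogenases hand their electrons to the electron transfer flavoprotein (ETF), a soluble FAD protein built from the products of Etfa and Etfb. ETF dehydrogenase, encoded by Etfdh, then passes the electrons to ubiquinone in the inner membrane. Inherited loss of any of these genes in humans causes multiple acyl-CoA dehydrogenase deficiency, in which muscle often stores lipid. Double bonds in unsaturated fatty acids must be moved before the spiral of beta-oxidation can proceed, which is the task of the enoyl-CoA isomerases ECI1 and ECI2 and the dienoyl-CoA isomerase ECH1.

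Values were FPKM, a read count scaled to transcript length and library size, and a gene without signal was listed at a floor of 0.0001. Estimated depth was 17.5 to 20.8 M fragments in GDM libraries and 14.4 to 16.5 M in CTR libraries, without overlap between groups. Depth and any batch tied to it thus cannot be told apart from the GDM condition. The limma test was run on log2(FPKM + 1) for genes reaching 1 FPKM in 5 or more libraries, and fold changes of weakly expressed genes are understated on this scale. Of 13363 genes tested, 46.0% passed an adjusted p of 0.05, 10.9% lower (1451 genes) and 35.1% higher (4691 genes) in GDM. The split depended on scaling, with 2592 lower and 2567 higher after median ratio scaling and 2343 and 2881 after quantile normalization. Over all tested genes the log2 fold change had a median of 0.15, and scaling by median ratios, which takes this shift out, lowered the fold changes of the 9 genes tested here. The summed level of 12 muscle fibre markers was 19678 to 27305 FPKM in GDM and 33868 to 40167 in CTR libraries. None of the 12 was at the floor in any library. In bulk tissue, fewer cells of a type and less RNA per cell cannot be told apart.

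The promoters of the ETF genes and of Acad10 are shown because the ETF subunits share 1 motif and Etfdh and Acad10 another. Sequences came from RefSeq (GRCm38.p6), where 9 of the 10 genes were matched, Acad9 being without an entry. Each stretch runs 5′ to 3′ on the gene's strand from 140 bases before the annotated start to 10 bases after it. Capitals mark the CCAAT box or its reverse complement in Etfa and Etfb, and the NRF1 palindrome in Etfdh and Acad10.
Etfa: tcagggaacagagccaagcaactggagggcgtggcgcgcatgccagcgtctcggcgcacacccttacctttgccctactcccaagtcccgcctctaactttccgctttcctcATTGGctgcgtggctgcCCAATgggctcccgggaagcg
Etfb: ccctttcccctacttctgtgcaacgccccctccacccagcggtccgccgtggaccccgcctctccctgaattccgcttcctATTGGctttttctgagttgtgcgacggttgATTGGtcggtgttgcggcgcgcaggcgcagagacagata
Etfdh: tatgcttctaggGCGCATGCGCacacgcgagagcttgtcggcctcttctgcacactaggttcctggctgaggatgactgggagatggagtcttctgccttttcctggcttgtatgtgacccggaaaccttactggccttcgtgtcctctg
Acad10: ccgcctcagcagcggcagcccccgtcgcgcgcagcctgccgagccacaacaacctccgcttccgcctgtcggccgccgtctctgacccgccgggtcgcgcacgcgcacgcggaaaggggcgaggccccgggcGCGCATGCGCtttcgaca
They lie at chr9:55512234-55512383 (minus strand), chr7:43443932-43444081 (plus), chr3:79628758-79628907 (minus) and chr5:121660501-121660650 (minus). NRF1, a factor known for its targets among nuclear genes of mitochondrial proteins, binds a palindrome of GCGCA followed by its reverse complement TGCGC, which was present in 319 (0.971%) of 32851 promoter windows of the same length (250 bases before the start to 50 after) and in 2 of the 9 matched genes. It lay at -128 to -119 from the start in Etfdh and at -8 to 2, across the start, in Acad10. These starts are those of RefSeq, which for Etfdh is base 79628767. The GENCODE gene begins further upstream at 79629500 on the minus strand, so the Etfdh stretch shown lies inside it. For Eci2 the starts also differ, at 34994144 (RefSeq) and 35027096 (GENCODE), and for Acad11, at 104063724 and 104063377. The bases searched before the start of these genes thus lie inside the GENCODE gene. The starts of Ech1, Eci1, Etfb and Acad10 differ by fewer bases. The CCAAT box (CCAAT, both strands) was present in 37.4% of all windows and in 5 of the 9 genes, namely Etfa, Etfb, Etfdh, Eci2 and Acad11. Both ETF subunits carried a pair of boxes, at -28 to -24 and -11 to -7 in Etfa and at -59 to -55 and -29 to -25 in Etfb. The windows of all 9 were also searched on both strands for the ERR element TCAAGGTCA (0.423% of windows), the PPAR element made of AGGTCA, any 1 base and AGGTCA again (0.0396%) and the CRE palindrome TGACGTCA (1.79%), with 0 matches. A match describes letters in a window only.

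The transcripts of electron transfer were lower in GDM foetal muscle for all 3 of the genes, and so were the 3 isomerases. Only Acad10 was below the filter, which left 9 of the 10 genes for the test. Among the 9, 6 fell and 0 rose, while 3 missed the threshold, with a median log2 fold change of -0.79 against 0.15 over all genes. The background of genes called lower was 10.9%. In the same 6 genes every GDM library lay below every CTR library, a pattern found in 7.43% of all tested genes with GDM lower and 34.7% in either direction. The exact permutation test, two-sided, gave 0.0079 for each, the smallest p that 5 against 5 libraries can give. All 6 stayed past the threshold under each of the 16 alternatives run, with a highest adjusted p of 0.00244 (limma).

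**Figure D1:**
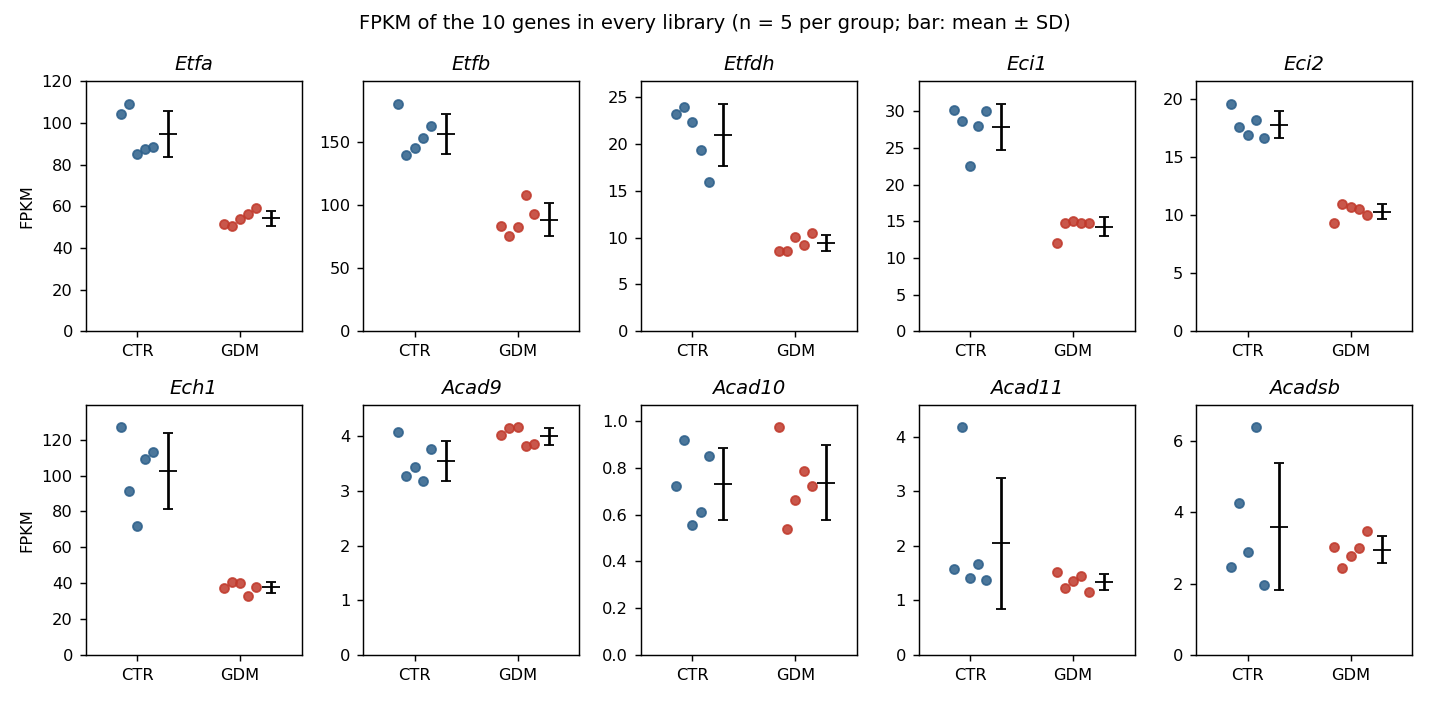
FPKM (linear axis) of each of the 10 genes in the 5 GDM and 5 CTR libraries, 1 point per library with the group mean and SD beside the points. The groups are fully separated in Etfa, Etfb, Etfdh, Eci1, Eci2 and Ech1 and overlap in Acad9, Acad10, Acad11 and Acadsb.

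Etfa (chromosome 9, 55454508 to 55512243, minus strand, GRCm38) encodes the alpha subunit of ETF. Its FPKM in GDM replicates 1 to 5 was 51.3, 50.6, 53.7, 56.1 and 59.0, and in CTR replicates 1 to 5 it was 104, 109, 84.9, 87.6 and 88.4. The GDM libraries were close to each other and all lay well below the lowest CTR library. The mean fell from 94.8 ± 11.01 (SD, n = 5) to 54.1 ± 3.46 (SD, n = 5), which is 57.1% of the CTR mean. The log2 fold change was -0.79 (SE 0.08, 95% interval -0.98 to -0.61, limma adjusted p = 6.07e-05).

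Etfb (chromosome 7, 43444083 to 43457800, plus strand) encodes the beta subunit, which is where acyl-CoA dehydrogenases dock. It was the most abundant of the 10 transcripts per length in both groups. Its FPKM was 83.3, 75.5, 82.6, 109 and 93.5 in the GDM libraries and 181, 140, 146, 154 and 163 in the CTR libraries. GDM replicate 4 was the highest of its group, but the groups did not overlap. It changed by -0.82 on the log2 scale (SE 0.10, 95% interval -1.05 to -0.59, limma adjusted p = 0.000174), with GDM at 56.6% of the CTR mean. On the same strand, 53.0% of the annotated Etfb exon bases are shared with Gm45233, which had at most 0.202 FPKM in GDM and 0.772 in CTR, so how reads were divided between both is uncertain. Mir7051 shares 5.24%.

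The subunits of ETF work as a heterodimer, and no difference in the ratio of their transcripts was detected. The Etfa to Etfb ratio of FPKM within a library was 0.517 to 0.671 (median 0.631) in GDM and 0.541 to 0.782 (median 0.576) in CTR. The log2 ratio differed by 0.02 between groups (two-sided exact permutation p = 0.857), less than the spread between libraries, with values of -0.02 to 0.12 when any 1 library was left out.

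Etfdh (chromosome 3, 79603788 to 79629500, minus strand) encodes the membrane enzyme that reduces ubiquinone. Its FPKM was 8.63, 8.60, 10.1, 9.17 and 10.5 in the GDM libraries and 23.2, 24.0, 22.4, 19.4 and 15.96 in the CTR libraries. The highest GDM value stood clearly under the lowest CTR value, that of replicate 5. The mean was 9.39 ± 0.857 (SD, n = 5) in GDM and 21.0 ± 3.31 (SD, n = 5) in CTR. GDM was at 44.7% of the CTR mean, a log2 fold change of -1.07 (SE 0.11, 95% interval -1.31 to -0.83, limma adjusted p = 4.88e-05). The opposite strand gene 4930579G24Rik overlaps 3.70% of the Etfdh exon bases, and it read 4.10 to 5.89 FPKM in GDM and 2.52 to 3.85 in CTR.

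Etfdh was lower relative to the ETF subunit Etfa in GDM than in CTR. The Etfdh to Etfa ratio was 0.163 to 0.187 (median 0.170) in GDM and 0.181 to 0.264 (median 0.222) in CTR, so the ranges touched only through CTR replicate 5. The log2 difference was -0.35 (exact permutation p = 0.0159, adjusted over the 9 pairs 0.0357). Leaving out GDM replicate 1, 2, 4 or 5 gave an adjusted p of 0.0536 and ended the call. The difference from Etfb had nearly the same size (-0.32) but did not pass, with an adjusted p of 0.116 in the exact permutation test over pairs. Without CTR replicate 5 the comparison with Etfb passed at an adjusted p of 0.0286 (exact permutation test).

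The isomerases were lower too, and Ech1 was the most reduced of the 10 genes. Eci1 (chromosome 17, 24426641 to 24439348, plus strand) encodes the mitochondrial enoyl-CoA isomerase that shifts a double bond left by oxidation of fatty acids such as oleate. Its FPKM was 11.98, 14.8, 15.0, 14.7 and 14.8 in the GDM libraries and 30.2, 28.7, 22.5, 28.0 and 30.0 in the CTR libraries. GDM replicate 1 and CTR replicate 3 were each the lowest of an otherwise tight group, and no values overlapped. The log2 fold change was -0.92 (SE 0.09, 95% interval -1.12 to -0.72, limma adjusted p = 4.44e-05), with GDM at 51.1% of the CTR mean.

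Eci2 (chromosome 13, 34977748 to 35027096, minus strand) encodes a related isomerase found in mitochondria and peroxisomes. Its FPKM was 9.27, 10.9, 10.7, 10.5 and 10.03 in the GDM libraries and 19.6, 17.6, 16.9, 18.2 and 16.6 in the CTR libraries. Both groups were narrow and far apart. On the log2 scale the change was -0.73 (SE 0.06, 95% interval -0.87 to -0.60, limma adjusted p = 2.29e-05), with GDM at 57.9% of the CTR mean. Its neighbour and near copy Eci3, which was below the filter, read 0.102 to 0.685 FPKM in GDM and 0.0001 to 0.929 in CTR, in every library far below Eci2. The antisense gene Gm16984 overlaps 3.41% of the Eci2 exon bases at 0.286 to 0.770 FPKM over all libraries.

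Ech1 (chromosome 7, 28825217 to 28832247, plus strand) encodes the dienoyl-CoA isomerase of the same route. Its FPKM was 37.1, 40.7, 40.0, 33.0 and 37.6 in the GDM libraries and 127, 91.4, 72.0, 109 and 113 in the CTR libraries. The CTR libraries were widely spread, and still the lowest of them stood above every GDM library. The mean was 37.7 ± 3.02 (SD, n = 5) in GDM and 103 ± 21.3 (SD, n = 5) in CTR. GDM was at 36.7% of the CTR mean, with a log2 fold change of -1.40 (SE 0.14, 95% interval -1.70 to -1.09, limma adjusted p = 4.44e-05). Ranked by log2 fold change among all tested genes, 0.711% lay lower than Ech1, against 1.40% for Etfdh, 1.96% for Eci1, 2.55% for Etfb, 2.78% for Etfa and 3.21% for Eci2.

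Ech1 also fell relative to both other isomerases. The Ech1 to Eci1 ratio was 2.24 to 3.09 (median 2.66) in GDM and 3.19 to 4.20 (median 3.78) in CTR, a log2 difference of -0.46. The Ech1 to Eci2 ratio was 3.14 to 3.996 (median 3.74) in GDM and 4.27 to 6.81 (median 6.02) in CTR, a log2 difference of -0.63. In neither ratio did the groups overlap, and each gave an exact permutation p of 0.0079 and an adjusted p of 0.0238 over the 9 pairs. Without GDM replicate 4 both calls were lost, at log2 differences of -0.40 and -0.58 with an adjusted p of 0.0536 each (exact permutation test). In both ratios the groups still did not overlap without that library. The Eci1 to Eci2 ratio differed by -0.18 (GDM median 1.40, CTR median 1.54) and did not pass (exact permutation, adjusted p = 0.107), although it did at 0.0238 without CTR replicate 3.

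**Figure D2:**
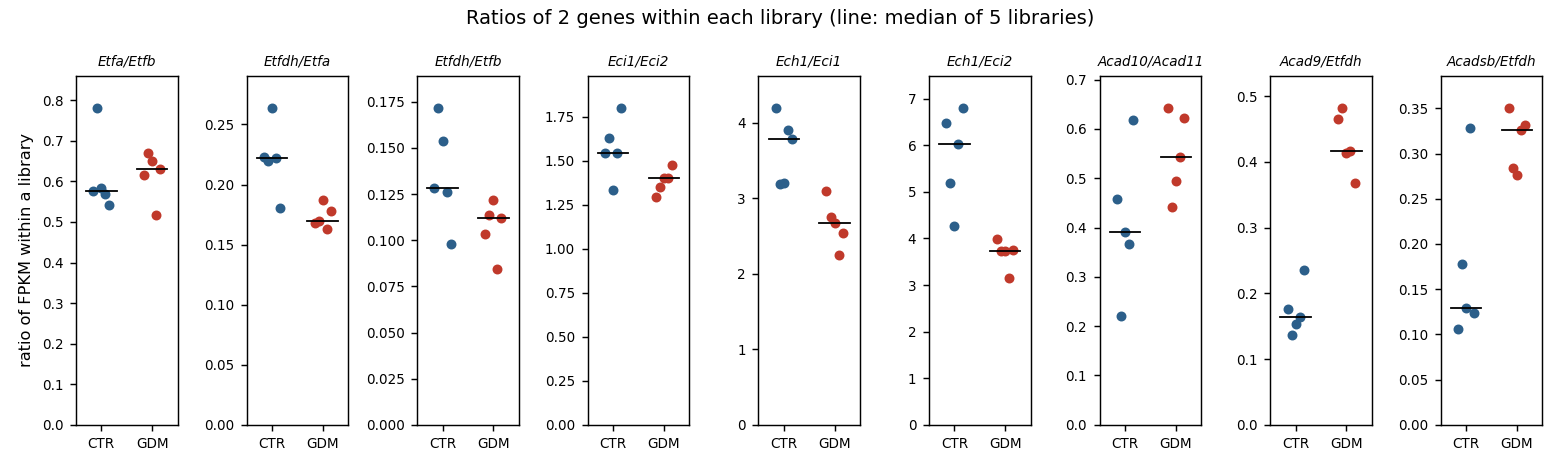
Ratio of the FPKM of 2 genes within 1 library (linear axis) for the 9 pairs compared, libraries as points and group medians as lines. The ratio of the ETF subunits overlaps between groups, whereas both Ech1 ratios lie lower and the Acad9 to Etfdh ratio lies higher in every GDM library.

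The 4 remaining dehydrogenase family genes did not pass the test, and their levels were low. Acad9 (chromosome 3, 36065979 to 36092853, plus strand) encodes a protein that is known mainly for the assembly of respiratory complex I. Its FPKM was 4.02, 4.15, 4.16, 3.82 and 3.86 in the GDM libraries and 4.07, 3.27, 3.44, 3.19 and 3.76 in the CTR libraries. The groups overlapped only through CTR replicate 1. Its log2 fold change was 0.14 (SE 0.07, 95% interval -0.01 to 0.29, limma adjusted p = 0.108). Without CTR replicate 1 it was 0.18 with an adjusted p of 0.04 (limma), whereas with median ratio scaling and with quantile normalization it was -0.01. Over the 16 alternatives its adjusted p ranged from 0.04 to 0.939 (limma).

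Acad9 stood apart from Etfdh within each library. The Acad9 to Etfdh ratio was 0.368 to 0.483 (median 0.416) in GDM and 0.136 to 0.236 (median 0.164) in CTR. The groups did not overlap, and the log2 difference was 1.33 (exact permutation p = 0.0079, adjusted over the 9 pairs 0.0238). Without GDM replicate 4 the difference was 1.34 and the groups still did not overlap. The call was lost all the same (exact permutation, adjusted p = 0.0536), since the adjustment depends on all 9 pairs.

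Acad10 (chromosome 5, 121621026 to 121660514, minus strand) and Acad11 (chromosome 9, 104063377 to 104127725, plus strand) encode dehydrogenases fused to a kinase-like region. Acad10 was below 1 FPKM in every library and read 0.972, 0.540, 0.664, 0.786 and 0.720 FPKM in GDM and 0.722, 0.917, 0.555, 0.611 and 0.851 in CTR. The values of both groups were mixed, and its log2 fold change in the fit without a filter was 0.00 (SE 0.08, 95% interval -0.18 to 0.19, limma adjusted p = 1). Its neighbour and near copy Acad12 read 0.602 to 0.982 FPKM in GDM and 0.416 to 1.16 in CTR, so reads shared by both make the level of Acad10 uncertain.

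Acad11 read 1.51, 1.22, 1.34, 1.45 and 1.16 FPKM in GDM and 1.58, 4.17, 1.42, 1.67 and 1.37 in CTR. A single library, CTR replicate 2, lay far above all others. The log2 fold change was -0.31 (SE 0.20, 95% interval -0.74 to 0.12, limma adjusted p = 0.217), and without CTR replicate 2 it was -0.10 (limma adjusted p = 0.294). Ackr4 on the opposite strand overlaps 4.89% of the Acad11 exon bases at 0.505 to 0.995 FPKM over all libraries. The Acad10 to Acad11 ratio had medians of 0.542 in GDM and 0.392 in CTR, and its log2 difference of 0.48 did not pass (exact permutation, adjusted p = 0.116).

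Acadsb (chromosome 7, 131410601 to 131448944, plus strand) encodes the dehydrogenase for short branched chains in isoleucine breakdown, which also delivers its electrons to ETF. Its FPKM was 3.03, 2.45, 2.78, 2.99 and 3.49 in GDM and 2.45, 4.26, 2.90, 6.38 and 1.97 in CTR. The CTR libraries spanned the whole GDM range on both sides. The log2 fold change was -0.14 (SE 0.22, 95% interval -0.63 to 0.34, limma adjusted p = 0.619), and without CTR replicate 4 it was 0.05 (limma adjusted p = 0.834). The Acadsb to Etfdh ratio was 0.277 to 0.351 in GDM and 0.106 to 0.328 in CTR, a log2 difference of 0.99 that missed the threshold over the 9 pairs (exact permutation p = 0.0318, adjusted 0.0571). It passed with a pseudocount of 1 (log2 difference 0.93, adjusted p = 0.0429 in the exact permutation test) and without CTR replicate 3, 4 or 5. In all, 4 of the 9 ratios passed, from 0 without GDM replicate 4 to 7 without CTR replicate 5. These counts depend on the adjustment over all pairs. Without GDM replicate 4 both Ech1 ratios and the Acad9 to Etfdh ratio still did not overlap between groups.

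**Figure D3:**
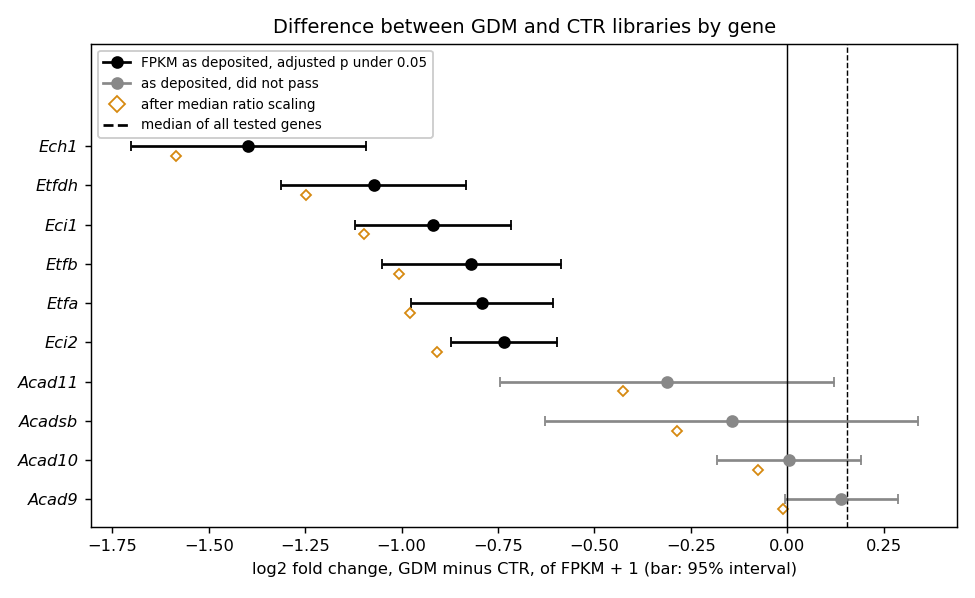
Log2 fold change (GDM minus CTR, on log2(FPKM + 1)) of each of the 10 genes with its 95% interval, beside the median of all tested genes at 0.15. The 6 genes of electron transfer and isomerization lie between -1.40 and -0.73 with intervals under 0, and the intervals of the other 4 include 0.

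By level per length, the order in CTR muscle was Etfb, Ech1, Etfa, Eci1, Etfdh, Eci2, Acadsb, Acad9, Acad11 and Acad10. Neighbours with overlapping CTR ranges were Ech1 and Etfa, Eci1 and Etfdh, Etfdh and Eci2, Acadsb and Acad9, and Acad9 and Acad11. In GDM muscle the order was Etfb, Etfa, Ech1, Eci1, Eci2, Etfdh, Acad9, Acadsb, Acad11 and Acad10, where only Eci2 and Etfdh had overlapping ranges. Ech1 exceeded Etfa in 3 of 5 CTR libraries, but its highest GDM value of 40.7 FPKM was under the lowest Etfa value of 50.6.

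The genes were next set against their nearest pathways, each taken as the mean log2 FPKM of a list within the same library, so that library scaling cancels. The 9 genes of the beta-oxidation spiral had a mean log2 difference of -0.94 between groups and the 21 nuclear genes of the respiratory chain one of -0.59. Relative to the spiral, Ech1 fell by a further 0.48 on the log2 scale (exact permutation p = 0.0079, adjusted over 20 comparisons 0.0176). Etfa (0.14), Etfb (0.12), Etfdh (-0.21), Eci1 (-0.02) and Eci2 (0.15) differed from the spiral by log2 amounts that did not pass, with adjusted p from 0.122 to 0.778 in the exact permutation test. Acad9 (1.12) and Acad10 (0.95) stood higher relative to the spiral, each with an adjusted p of 0.0176 in the exact permutation test. Their own log2 fold changes were 0.14 and 0.00, so these differences were largely the fall of the spiral itself. Acad11 (0.47) and Acadsb (0.78) did not pass against the spiral. Single libraries decided several of these calls (exact permutation test throughout). Without CTR replicate 2, Etfa (0.19, adjusted p = 0.0366) and Acad11 (0.76, adjusted p = 0.0317) stood higher than the spiral. Eci2 did so without GDM replicate 5 (0.20, adjusted p = 0.0476) and Acadsb without CTR replicate 4 (1.03, adjusted p = 0.0159). Acadsb also passed with all libraries at a pseudocount of 1 (0.77, adjusted p = 0.0433). Etfdh stood lower than the spiral without CTR replicate 5 (-0.29, adjusted p = 0.0176).

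Relative to the respiratory chain, electron transfer and isomerase genes were reduced further. The log2 difference was -0.83 for Ech1, -0.56 for Etfdh, -0.38 for Eci1, -0.21 for Etfa and -0.20 for Eci2, each with an adjusted p of 0.0176 in the exact permutation test. The call of Etfa was lost without GDM replicate 3 (adjusted p = 0.0529, exact permutation test). Etfb, at -0.24, had a similar size but did not pass (exact permutation, adjusted p = 0.122), although it did without GDM replicate 4 (-0.31, adjusted p = 0.0476). Acad11, at 0.12, passed only without CTR replicate 2 (0.40, adjusted p = 0.0366 in the exact permutation test). Acad9 stood higher by 0.77 (adjusted p = 0.0176 in the exact permutation test). Acad10 stood higher by 0.60 (adjusted p = 0.0476, exact permutation test), a call kept in 3 of 11 alternatives. With own log2 fold changes of 0.14 (Acad9) and 0.00 (Acad10), both differences were largely the fall of the chain (-0.59). Of the 20 comparisons 10 passed, and 8 to 13 did under the alternatives.

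**Figure D4:**
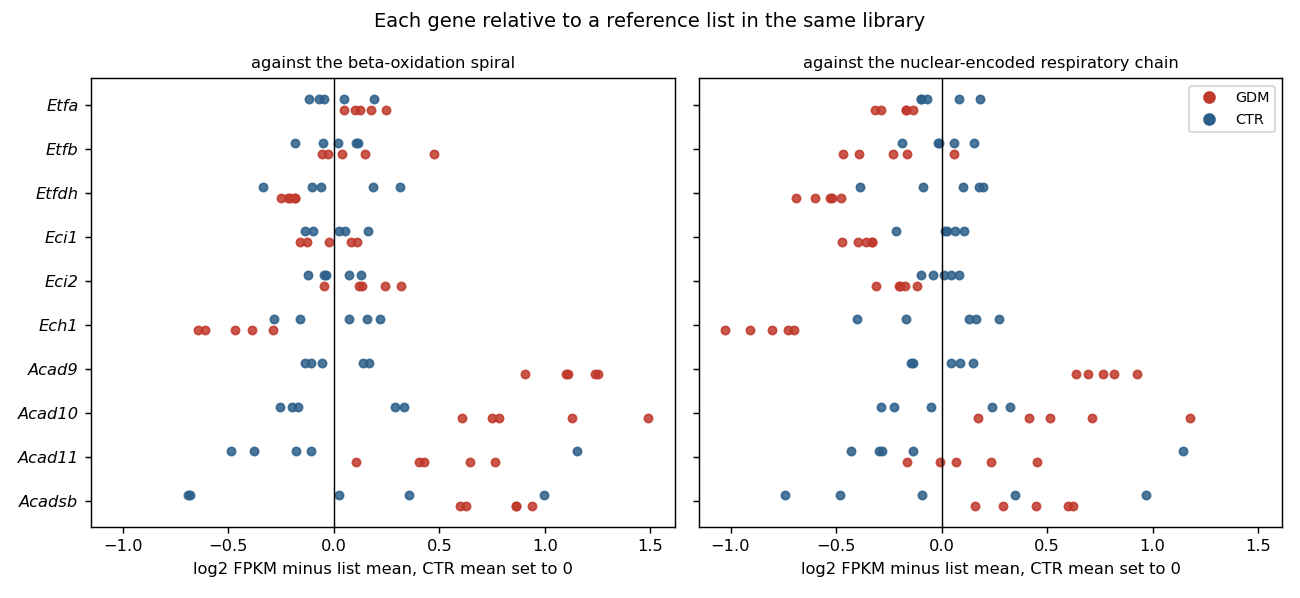
Log2 FPKM of each gene minus the mean log2 FPKM of a reference list in the same library, for the beta-oxidation spiral and the nuclear-encoded respiratory chain, with GDM and CTR libraries as points. Ech1 lies lower and Acad9 higher in every GDM library against both lists.

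Around ETF, the donors did not move as 1 group. Of 8 donors tested, 3 were lower and 2 higher, against 10.9% lower and 35.1% higher over all tested genes. The lower ones were the long-chain and medium-chain fatty acid dehydrogenases Acadvl (-1.29), Acadl (-1.22) and Acadm (-1.12), given as log2 fold changes. Gcdh, the glutaryl-CoA dehydrogenase of lysine breakdown, rose from 8.36 ± 0.646 to 11.7 ± 0.874 FPKM (SD, n = 5 each), a log2 fold change of 0.45 (limma adjusted p = 0.000415). Ivd, which acts in leucine breakdown, rose by 0.43 on the log2 scale at an adjusted p of 0.0497 (limma), a call that was lost under median ratio scaling (0.27, limma adjusted p = 0.223) and under most other alternatives. Acads, Sardh and Acad8 did not pass, and Dmgdh was below the filter. The count was 4 lower and 1 higher under median ratio scaling.

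ETF needs FAD. Of 6 genes tested for ETF modification and flavin supply 1 fell and 0 rose, against 10.9% and 35.1% of all tested genes. The faller was Flad1, the FAD synthase, at 5.80 ± 0.509 against 7.23 ± 0.872 FPKM (SD, n = 5 each), a log2 fold change of -0.27 (limma adjusted p = 0.0191) that was not called without the filter. Etfrf1, a regulator of ETF, read 7.36 ± 3.67 against 12.2 ± 3.21 FPKM (SD, n = 5 each) with an adjusted p of 0.0748 (limma), and it passed under 6 of the alternatives, both scalings among them. Rfk, the riboflavin kinase, had a log2 fold change of -0.11 (limma adjusted p = 0.114) and passed as lower under both scalings. Slc25a32, the mitochondrial folate and FAD carrier, had a log2 fold change of 0.23 (limma adjusted p = 0.191). For Etfbkmt, which methylates the beta subunit, the log2 fold change was 0.00.

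Among 5 other tested genes for the oxidation of unsaturated and peroxisomal substrates, 1 fell and 0 rose. Over all tested genes 10.9% were lower and 35.1% higher. Decr1, the mitochondrial dienoyl-CoA reductase that works next to the isomerases, was at 11.3 ± 0.542 FPKM in GDM and 33.9 ± 6.47 in CTR (SD, n = 5 each). Its log2 fold change of -1.49 (limma adjusted p = 2.16e-05) was of the size seen in Ech1. Its peroxisomal counterpart Decr2 had a log2 fold change of 0.45 with an adjusted p of 0.073 (limma), and passed without CTR replicate 4 (0.54, adjusted p = 0.0403) or GDM replicate 1 (0.55, adjusted p = 0.0381). The peroxisomal genes Hsd17b4 (-0.19) and Ehhadh (-0.51) did not pass, and Hsd17b4 passed as lower under both scalings.

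In the spiral itself 8 of 9 genes fell and 0 rose, with a median log2 fold change of -1.05. Echs1, which is also in the isoleucine list below, lost its call in several alternatives, which made 7 of 9. These were leaving out any 1 GDM library, the replicate block and the fit without a filter. Hadha, a subunit of the trifunctional protein, fell by 1.13 on the log2 scale (limma adjusted p = 2.23e-05). In the respiratory chain 21 of 21 genes fell, with a median log2 fold change of -0.58, among them Uqcrc2 (-0.71), Ndufa9 (-0.77), Ndufv1 (-0.84) and Uqcrc1 (-0.58). Cox4i1 lost its call when GDM replicate 3, 4 or 5 or CTR replicate 1, 2 or 4 was left out, which made 20 of 21. Of the 5 complex I assembly partners of ACAD9, 1 fell and 0 rose, against 10.9% and 35.1% of all tested genes. It was Ecsit, at -0.42 on the log2 scale (limma adjusted p = 0.00154), while Tmem126b (0.22), Timmdc1 (0.23) and Tmem186 (0.15) did not pass and, together with Ndufaf1 (-0.13), gave a median of 0.15 for the list. Each of these 3 genes passed when certain single libraries were left out, for example Timmdc1 without CTR replicate 2 (0.29, limma adjusted p = 0.0183), Tmem126b without GDM replicate 1 (0.26, limma adjusted p = 0.0283) and Tmem186 without CTR replicate 1 (0.18, limma adjusted p = 0.0345). Of 8 isoleucine breakdown genes beside Acadsb, 4 fell and 0 rose. They were Bckdha (-0.86), Dld (-0.39), Acat1 (-0.21) and Echs1 (-0.36), of which the last missed the threshold when any 1 GDM library was left out, with adjusted p from 0.0576 to 0.0691 (limma). Dbt passed as higher without CTR replicate 2 (0.42, limma adjusted p = 0.00151).

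For each electron transfer gene, the 3 genes whose log2 levels followed it most closely over the 10 libraries were named. For Etfdh they were Pdk4 (Pearson r = 0.996), Sdha (0.995) and Slc25a34 (0.991). For Etfa they were Plin4 (0.990), Slc25a20 (0.987) and Slc25a33 (0.983), and for Etfb they were Mb (0.973), Qpct (0.969) and Mief2 (0.968). Both groups are pooled in these correlations, which therefore carry the difference between groups, and the libraries share their depth order. They are a description only.

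Markers of other cell types moved with the groups. The summed FPKM of 10 fat cell markers was 55.2 to 73.1 in GDM and 341 to 2035 in CTR libraries. Of the 9 tested, some passed the filter on low values only through the CTR group, such as Cidec at 0.0519 to 0.430 FPKM and Plin1 at 0.0953 to 0.321 FPKM in GDM, so their count is given as a description. All 9 were called lower with a median log2 fold change of -3.46, which was -5.17 with a pseudocount of 0.1 and -1.87 over the 5 with at least 1 FPKM in every library. The highest sum of fat cell markers was that of CTR replicate 2. Without that library the 6 genes still fell, with log2 fold changes of -0.74 (Etfa), -0.86 (Etfb), -1.02 (Etfdh), -0.91 (Eci1), -0.74 (Eci2) and -1.43 (Ech1). The other CTR libraries still read 341 to 505 FPKM of fat cell markers, so leaving it out does not remove the difference in these markers between groups. Of 3 tested brown fat markers 0 passed, but Cidea (-0.62) and Elovl3 (-0.48) were called lower under median ratio scaling and Elovl3 (-0.49) under quantile normalization. Without CTR replicate 4 Cidea was called lower (-0.62), and without CTR replicate 3 Ebf2 was called higher (0.32). In these 8 listed markers the summed FPKM was 14.7 to 16.4 in GDM and 14.2 to 36.8 in CTR, with Zic1, Lhx8 and Prdm16 under 1 FPKM in every library. Ucp1 and Dio2 were also below the filter. In the fit without a filter the log2 fold change was -1.86 for Ucp1 (limma adjusted p = 0.128) and 0.18 for Dio2 (limma adjusted p = 0.406). For Zic1, Lhx8 and Prdm16 it was 0.07, 0.00 and -0.09. Muscle fibre markers were lower for 9 of 12 genes (median -0.52) and higher for Myh3, the embryonic myosin, at 1.66. Under quantile normalization 5 of the 12 were lower. Chondrocyte markers were higher for 5 of 6 tested genes (median 1.12), against 35.1% of all tested genes. Sox9, at 0.602 to 0.808 FPKM in CTR, passed the filter only through the GDM group, so this count is a description. Over the 4 with at least 1 FPKM in every library, 3 were higher. Endothelial markers were lower for 4 of 6, and erythroid, macrophage and Schwann cell markers were each lower for 2 (of 7, 8 and 6 tested). The share of all tested genes called lower was 10.9%. The part of these shifts in the lower levels of the 6 genes was not tested.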

How the data were processed

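RNA-seq values of foetal limb muscle were used, 5 GDM and 5 CTR libraries grouped by their labels. The deposited table holds 1 FPKM value per gene and library, which the authors made from poly(A) libraries with HISAT2 2.0.4 and StringTie 1.3.4d. The submitters' notes name mm10 as the build, and edgeR and DESeq2 without a role. The sources do not say whether counting used the strand. The table also has deposited columns of the authors' own comparison, a fold change (ratio of group means), its log2 value, a p-value and a q-value, which were not used. Of the columns with values of single samples, 0 were left out.

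Values were analysed as log2(FPKM + 1) with limma 3.58.1 (trend, robust) in R 4.3.3, over 13363 genes with at least 1 FPKM in at least 5 libraries, two-sided, with Benjamini-Hochberg adjustment and a threshold of 0.05. Ratios and differences from a list mean used no pseudocount and two-sided exact permutation tests over all assignments of the 10 libraries, adjusted over 9 pairs and over 20 comparisons. Atp5o, whose symbol stood on more than 1 identifier, was left out of the respiratory chain. Depth was estimated from the lowest values of single-transcript genes. It is approximate, and no counting interval is given. Coordinates and exon overlaps came from GENCODE vM21 (GRCm38). Joins, exact tests and figures used Python 3.11.15, scipy 1.17.1, pandas 2.3.3, numpy 2.4.6 and matplotlib 3.10.9.

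The genes, lists and tests were chosen with earlier results of these data known. Named genes were all 10, up to 4 genes of each list by adjusted p, the 3 genes most correlated with Etfa, Etfb and Etfdh, genes overlapping an exon, and the near copies Eci3 and Acad12. Other list genes were named after their values were seen. The fit was repeated with a block for the replicate number, without each library in turn, with median ratio scaling, with quantile normalization, with a pseudocount of 0.1, unfiltered, and with 1 FPKM required in every library. Ratios and list differences were repeated with a pseudocount of 1 and without each library.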

Additional observations from a re-analysis of the deposited data

Results flagged for a closer look

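In each of the 10 genes and both groups, the lowest and highest library were compared with the rest of their group by Dixon's gap test, at a critical value of 0.71 for 5 libraries. Of 20 group values examined, 3 passed, where chance alone gives about 1 in 20. In the GDM group, Eci1 was lowest in replicate 1 at 11.98 FPKM, while the other 4 libraries read 14.7 to 15.0, and the gap took up 0.898 of the range. In the CTR group, Eci1 was lowest in replicate 3 at 22.5 FPKM, with the others at 28.0 to 30.2 and a gap of 0.716 of the range. Acad11 was highest in CTR replicate 2 at 4.17 FPKM, with the others at 1.37 to 1.67 and a gap of 0.894 of the range.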

How the results depend on the processing

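The 6 lower genes kept direction and call under all 16 alternatives, with log2 fold changes of -0.98 to -0.74 (Etfa), -1.01 to -0.76 (Etfb), -1.25 to -1.02 (Etfdh), -1.10 to -0.86 (Eci1), -0.91 to -0.70 (Eci2) and -1.58 to -1.32 (Ech1). Over all genes, 1451 were lower and 4691 higher. With median ratio scaling the counts were 2592 and 2567, and with quantile normalization 2343 and 2881. Leaving out 1 library gave 0 to 1 higher members (Acad9 without CTR replicate 1) and 0 to 7 ratios past the threshold. Same-numbered libraries did not deviate together (correlations of -0.07 to -0.02 between their deviations from the group means). No pairing by number was thus seen in expression, and whether the numbers pair samples in another way is unknown. With the replicate number as a block 6 of the genes were lower and 0 higher, and over all genes 1269 were lower and 4171 higher. The block changed no call among the 10 genes. Among the listed pathway genes it ended the calls of Acat1, Echs1 and Ivd and added Etfrf1 and Timmdc1, and among markers Hba-a1 and Hba-a2. No counting interval could be given, so the part of depth in the spread of low genes such as Acad10 was not tested.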

Other observations

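CTR replicate 2, the library with the highest Acad11 value, also stood above the other CTR libraries in several listed genes, which were picked after their values were seen. Ehhadh, the peroxisomal bifunctional enzyme, read 12.2 FPKM there and 1.98 to 2.74 in the other 4. Among genes of branched-chain amino acid breakdown, Bckdhb read 21.9 against 8.57 to 9.20, Dbt 10.98 against 4.01 to 4.76, and Bcat2 21.2 against 8.09 to 9.51. Echs1 read 15.5 against 9.11 to 9.66. The summed level of fat cell markers in the same library was 2035 FPKM, against 341 to 505 in the other CTR libraries. In contrast, Etfb at 140 FPKM was the lowest of the CTR group in that library, and Ech1 at 91.4 and Eci1 at 28.7 lay within the range of the others. Whether these values share a source was not tested.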
